A study of Mus musculus with 9 samples.

Results

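The genes described here make fatty acids from carbohydrate in the liver, or control that synthesis. They are 10 genes chosen by symbol: the enzymes Acly, Acaca, Acacb, Fasn, Elovl6 and Scd1, the transcription factors Srebf1 and Mlxipl, and the lipogenic genes Thrsp and Pnpla3. All 10 were found among the 27179 genes of the deposited table, and all 10 passed the minimum mean of 10 normalized counts that left 12993 genes for testing.

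The libraries came from livers of 9 C57BL/6J mice of wild-type genotype, kept on normal chow under a light and dark cycle. At 17 months of age every mouse was injected by the retro-orbital route with an AAV8 vector that expressed saCas9, a small Cas9 nuclease, from the hepatocyte promoter TBG. Its guide RNA, made from a U6 promoter, was directed against the Rosa26 locus (sgRosa26, 4 control mice) or against Ccnd1 (sgCcnd1, 5 mice), so the controls carried the nuclease and a cutting guide too. The liver m-lobe was frozen 3 weeks later and its polyA RNA sequenced in bulk. Non-hepatocyte cells are not meant to express the nuclease, so the label KO does not describe every cell of the lobe. Ccnd1 encodes cyclin D1, the partner of the cell cycle kinases CDK4 and CDK6, which has also been reported to repress lipogenic genes in hepatocytes. The comparison asks whether these genes differ between the livers given either guide. The control libraries are called A to D and the sgCcnd1 libraries E to I, in the order of the table's columns, whose names give an animal number for each.

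In de novo lipogenesis, citrate that leaves the mitochondrion is split to acetyl-CoA in the cytosol, carboxylated to malonyl-CoA, built into palmitate with NADPH, and then elongated and desaturated. The liver raises this pathway after a carbohydrate meal: insulin acts through SREBP-1c, the product of Srebf1, and glucose through ChREBP, the product of Mlxipl. Both factors bind promoters of lipogenic genes, and SREBPs commonly act together with the factors NF-Y and Sp1, whose recognition boxes lie close to their sites.

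The values are read counts that the authors divided by 1 size factor per library, called normalized counts here. Depth was 10.8 to 20.2 M reads per library. Ccnd1 itself had 744 ± 110 normalized counts in sgRosa26 (SD, n = 4) and 362 ± 40.6 in sgCcnd1 (SD, n = 5), and all 5 sgCcnd1 libraries lay below all controls (log2 fold change -1.03, limma adjusted p = 0.0116). Its limma adjusted p rose above 0.05 when B, D, F, H or I was left out (0.0559 to 0.0852), with log2 fold changes of -1.02 to -0.96. The 10 hepatocyte markers examined were all present. Library H, of the sgCcnd1 group, stood apart, with 2.00 normalized counts summed over Y-linked genes against 1619 to 2834 in the other 8 libraries. The labels give no sex, and this trait is not balanced between the groups. In the limma fit without H the log2 fold changes of all 10 lipogenic genes kept their sign, and in DESeq2 without H that of Pnpla3 turned. Because whole lobe was sequenced, fewer cells of a type and less RNA per cell cannot be told apart.

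Promoter windows from RefSeq (GRCm38.p6), 300 bases long with 250 before the start site and 50 after it, were found for 9 of the 10 genes, 12 windows in all. Both strands were searched for the letters CCAAT (the NF-Y box), GGGCGG (the GC box bound by Sp1), CACGTG (an E-box) and TCACNCCAC (a loose form of the sterol element). CCAAT stood in 8 of the 12 windows, from 7 genes, and in 37.4% of all 32851 windows. GGGCGG stood in 5 of the 12 windows, from 4 genes, and in 35.7% of all windows. CACGTG and TCACNCCAC each stood in 1 of the 12 windows, both of Mlxipl, against 7.15% and 1.24% of all windows. The part from -250 to -32 is printed for the pair whose levels followed each other most closely over the libraries (Fasn and Elovl6), and for the pair with the largest differences between groups (Acacb and Acly). Capitals mark CCAAT and GGGCGG on either strand, so that ATTGG and CCGCCC are also in capitals. Each sequence runs 5′ to 3′ along its gene's strand.
Fasn: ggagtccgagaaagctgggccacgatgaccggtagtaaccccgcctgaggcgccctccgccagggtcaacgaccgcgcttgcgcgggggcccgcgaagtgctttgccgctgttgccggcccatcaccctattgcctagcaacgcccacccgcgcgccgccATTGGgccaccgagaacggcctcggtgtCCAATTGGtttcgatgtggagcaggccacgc
Elovl6: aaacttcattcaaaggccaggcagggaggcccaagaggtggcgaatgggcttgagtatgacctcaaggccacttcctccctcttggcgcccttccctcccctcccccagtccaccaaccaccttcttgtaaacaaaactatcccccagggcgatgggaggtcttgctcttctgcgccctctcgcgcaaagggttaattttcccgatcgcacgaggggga
Acly: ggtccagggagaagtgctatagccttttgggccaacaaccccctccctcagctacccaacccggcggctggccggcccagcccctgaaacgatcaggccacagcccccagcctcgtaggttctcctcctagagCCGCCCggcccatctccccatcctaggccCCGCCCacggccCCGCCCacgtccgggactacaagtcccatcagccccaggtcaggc
Acacb: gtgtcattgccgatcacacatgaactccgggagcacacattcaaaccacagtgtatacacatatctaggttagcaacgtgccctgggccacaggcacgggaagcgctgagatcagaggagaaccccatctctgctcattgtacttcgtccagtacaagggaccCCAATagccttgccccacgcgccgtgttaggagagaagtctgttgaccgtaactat
The Fasn stretch is chr11:120824579-120824797 on the minus strand. It lies upstream of the gene in GENCODE M21 but inside the longer span that RefSeq gives Fasn, and it holds 3 marked matches, of which 2 overlap. The Elovl6 stretch, chr3:129532136-129532354 on the plus strand, overlaps an exon of the antisense transcript Gm35986 and holds 0 matches. The Acly stretch, chr11:100528032-100528250 on the minus strand, is intergenic in GENCODE M21 and holds 3 matches, all GC boxes. The Acacb stretch, chr5:114165268-114165486 on the plus strand, lies in an intron of a longer Acacb transcript and holds 1 CCAAT. A match is a run of letters, and binding was not measured.

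Between the groups, 0 of the 10 genes passed the limma test at an adjusted p of 0.05, where 0.00770% of all genes tested passed. Acacb alone had an unadjusted limma p under 0.05, 1 of 10 genes, against 11.0% of all genes tested. In 0 of the 10 did the 2 groups of libraries fail to overlap, against 3.89% of all genes tested. With DESeq2 on the recovered whole reads, 0 of the 10 passed as well, against 0.976% of the genes for which it gave an adjusted p, and 0 passed with edgeR. These shares are near the background in each case. Mean levels were higher in sgCcnd1 for 7 genes and lower for 3 on the log2 scale, where 52.9% of all genes tested were higher, with a median log2 fold change of 0.15 over the 10 genes and 0.014 over all genes tested. Without a single library the median of the 10 ran from 0.035 (without B) to 0.27 (without H); it was 0.052 without F, 0.071 without E, 0.091 without D, 0.24 without C, 0.072 with quantile scaling and 0.29 in DESeq2 without H. Unless edgeR, DESeq2 or another scaling is named, fold changes are differences of mean log2(normalized count + 1), sgCcnd1 minus sgRosa26, and their 95% intervals come from the limma fit.

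**Figure D1:**
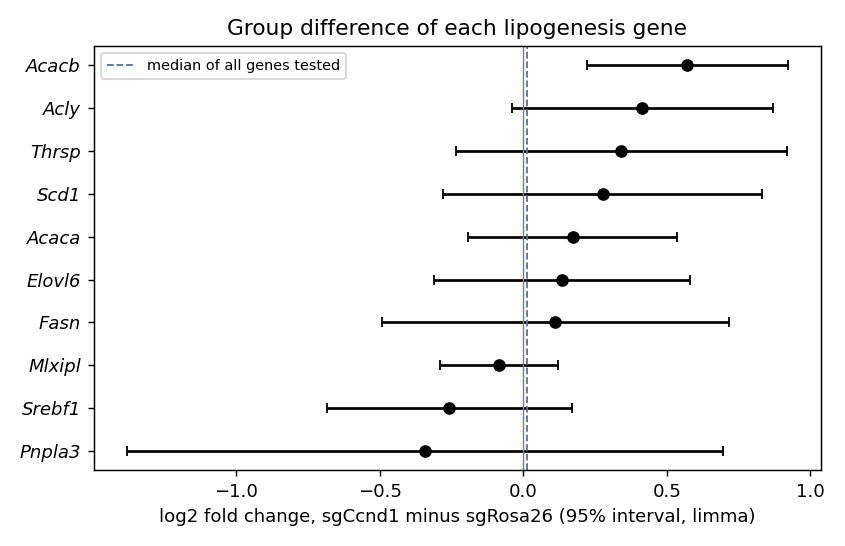
Log2 fold change of each of the 10 lipogenic genes, sgCcnd1 minus sgRosa26, as points with the 95% interval of the limma fit as bars (n = 5 and n = 4). The interval of Acacb, 0.22 to 0.92, is the only one of the 10 that leaves out 0, and that of Pnpla3, -1.38 to 0.70, is the widest.

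Acly, ATP citrate lyase, makes the cytosolic acetyl-CoA from which fatty acids are built. Its control libraries A to D had 12980, 10647, 13174 and 7773 normalized counts, and libraries E to I had 17838, 21304, 12034, 10692 and 13322. E, F and I lay above every control, while G and H lay within the control range. The means were 11144 ± 2523 (SD, n = 4) and 15038 ± 4415 (SD, n = 5). The log2 fold change was 0.42 with an interval of -0.04 to 0.87, which missed the threshold (limma adjusted p = 0.495; exact permutation p = 0.183). Leaving out 1 library gave 0.25 (without D) to 0.53 (without H; limma adjusted p = 0.580).

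The acetyl-CoA carboxylases make malonyl-CoA. The enzyme of Acaca is cytosolic and supplies fatty acid synthesis, whereas that of Acacb sits at the mitochondrial surface, where malonyl-CoA restrains the entry of fatty acids for oxidation. Acacb showed the largest difference of the 10 genes with all 9 libraries; without E or without F that of Pnpla3 was larger in size (-0.65 and -0.66, against 0.49 and 0.50 for Acacb). Controls A to D had 2603, 3245, 3485 and 2268 normalized counts of Acacb, and E to I had 5390, 5120, 4106, 3437 and 3559. Of the 5 sgCcnd1 libraries, 4 were above every control, and H, at 3437, fell between controls B and C. The means were 2900 ± 562 (SD, n = 4) and 4322 ± 893 (SD, n = 5); the log2 means differ 1.49-fold. The log2 fold change was 0.57 ± 0.161 (SE), with an unadjusted limma p of 0.00382 and an adjusted p of 0.271. An exact permutation test of this gene alone gave p = 0.0397, where the smallest possible with 4 and 5 libraries is 0.00794. DESeq2 gave Acacb an adjusted p of 0.0717 with all 9 libraries and 0.0489 without library H, the only setting in which any of the 10 genes passed.

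Acaca lay closer between groups. Its controls had 2928, 1674, 3018 and 1988 normalized counts, and E to I had 3104, 2745, 2706, 2229 and 2420. Only E exceeded the highest control, and the low controls B and D widened the control range. The groups differed by a log2 fold change of 0.17, with an interval of -0.19 to 0.54 (limma adjusted p = 0.731; exact permutation p = 0.421). It ran from 0.013 without B to 0.30 without C. The 2 carboxylases were not tested against each other, and their own intervals overlap.

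Fasn encodes fatty acid synthase, which builds palmitate. Libraries A to D had 38078, 20274, 28862 and 19847 normalized counts of Fasn, and E to I had 44856, 40420, 22066, 18308 and 22938. E and F stood above all controls, H stood below all of them, and G and I fell between controls B and C. Means were 26765 ± 8610 (SD, n = 4) and 29718 ± 12025 (SD, n = 5). The log2 fold change of 0.11 had an interval of -0.49 to 0.72 (limma adjusted p = 0.915), and its sign turned when B, D, E or F was left out (lowest value -0.060, without E; highest 0.30, without A). At this spread a difference of either sign could not be resolved.

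Elovl6 elongates palmitate to stearate, and Scd1, the main liver stearoyl-CoA desaturase, turns these into monounsaturated fatty acids. Elovl6 had 4290, 3111, 4100 and 3309 normalized counts in A to D, and 5389, 5925, 3746, 2788 and 3183 in E to I. Its order over the libraries was much that of Fasn: E and F were above all controls and H below them. Between groups its log2 fold change was 0.14, with an interval of -0.31 to 0.58 (limma adjusted p = 0.843), and it ran from -0.0038 without F to 0.27 without H.

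Scd1 was by far the most abundant of the 10 genes. Controls A to D had 190765, 301253, 397058 and 362186 normalized counts, and E to I had 477845, 418262, 369540, 291851 and 301898. Library A was the lowest of all 9, and E and F were the highest. Its log2 fold change was 0.28, with an interval of -0.28 to 0.83 (limma adjusted p = 0.711). Without control A it was 0.057, and without C 0.41. Scd1 alone took 1.27% to 3.11% of the reads of a library. The 10 genes took 2.51% ± 0.504 of the reads in sgRosa26 (SD, n = 4) and 2.85% ± 0.628 in sgCcnd1 (SD, n = 5), with ranges that overlap (exact permutation p = 0.413).

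Of the transcription factors, Srebf1 had 9184, 5458, 5902 and 6846 normalized counts in A to D, and 6891, 7081, 3967, 4458 and 6449 in E to I. Control A was the highest of all, and G and H were below every control. Means were 6847 ± 1661 (SD, n = 4) and 5769 ± 1450 (SD, n = 5). This gave a log2 fold change of -0.26, with an interval of -0.68 to 0.17 (limma adjusted p = 0.655; exact permutation p = 0.317). It was -0.11 without A and -0.13 without G. Gene counts do not separate the SREBP-1a and SREBP-1c transcripts of Srebf1, which start at different promoters.

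Mlxipl was the steadiest of the 10. It had 10478, 9826, 11622 and 11220 normalized counts in A to D, and 10500, 9574, 10961, 10963 and 8974 in E to I. The highest library was 1.30 times the lowest, and F and I were just below the control range. Its log2 fold change was -0.08 with an interval of -0.29 to 0.12 (limma adjusted p = 0.771), the narrowest interval of the 10. Leaving out 1 library gave -0.13 (without B) to -0.038 (without I), and quantile scaling gave -0.17. The alpha and beta transcripts of ChREBP are likewise joined in this count.

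Thrsp, or Spot 14, is a small protein that responds to thyroid hormone and carbohydrate and promotes lipogenesis. It had 2885, 4541, 4209 and 3531 normalized counts in A to D, and 5627, 9071, 3239, 3190 and 4522 in E to I. F was the highest by far, and E was above every control too, while G, H and I lay among the controls. Its log2 fold change was 0.34, with an interval of -0.24 to 0.92 (limma adjusted p = 0.660). Without F it was 0.11, and without A 0.22. Its paralog Mid1ip1 had a mean of 1504 ± 347 normalized counts in sgRosa26 (SD, n = 4) and 1494 ± 512 in sgCcnd1 (SD, n = 5).

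Pnpla3 encodes a lipid droplet protein that is induced by SREBP-1c and ChREBP on feeding. It varied most of the 10 genes. Controls A to D had 600, 1370, 600 and 971 normalized counts, and E to I had 1533, 1564, 386, 405 and 324. E and F lay above all controls and G, H and I below all of them, so the sgCcnd1 libraries divided to either side of the control range. Means were 885 ± 368 (SD, n = 4) and 842 ± 646 (SD, n = 5). The log2 fold change was -0.34, with an interval of -1.38 to 0.70 (limma adjusted p = 0.826; exact permutation p = 0.611). Leaving out 1 library gave -0.66 (without F) to -0.088 (without I). With all 9 libraries edgeR gave -0.075, and DESeq2 without library H gave 0.098.

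**Figure D2:**
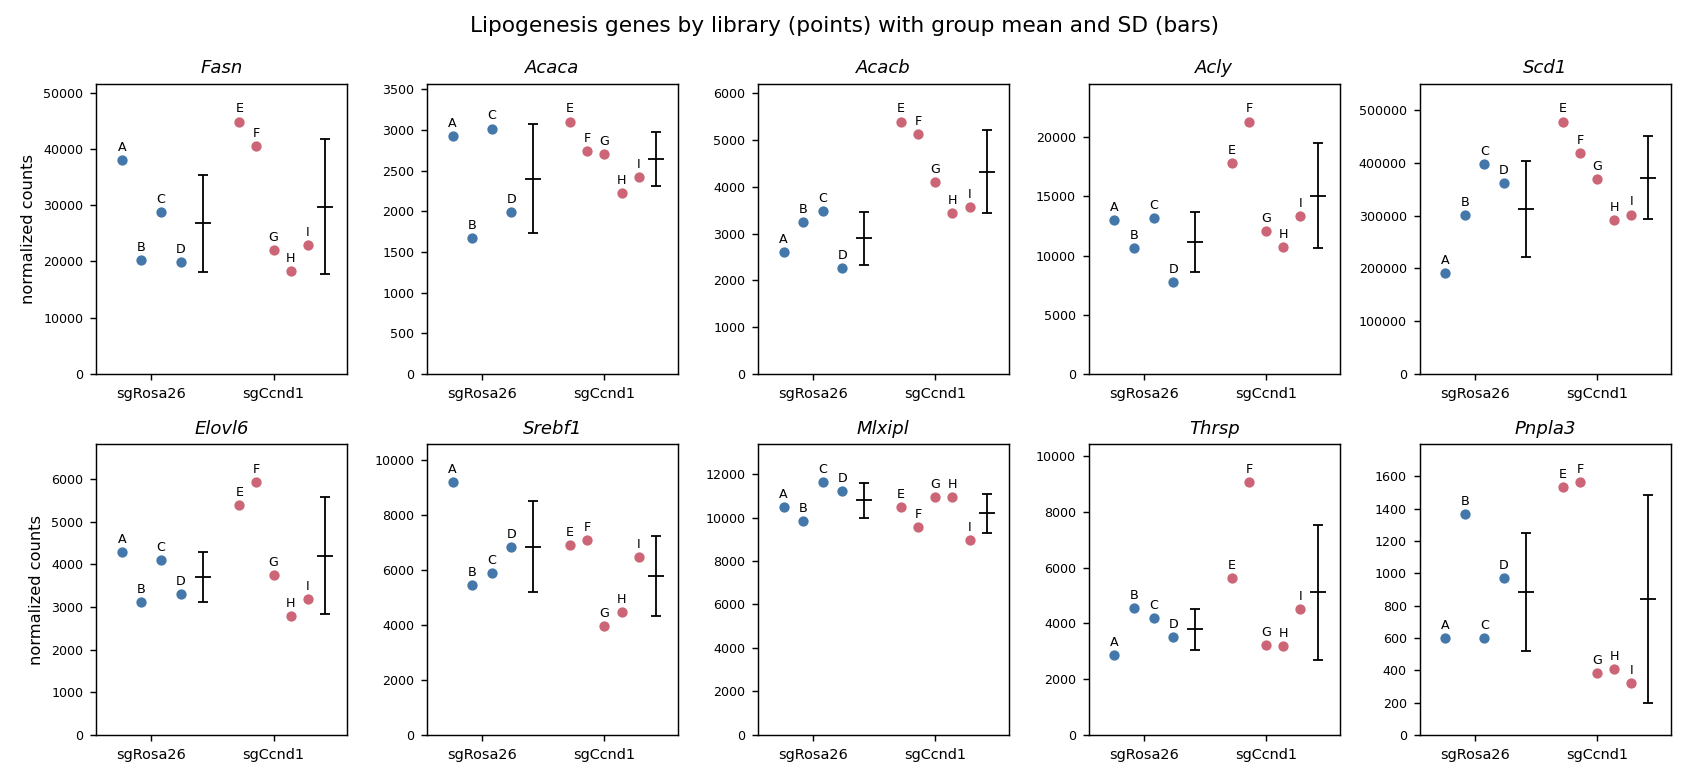
Normalized counts of the 10 lipogenic genes in each of the 9 libraries, 1 panel per gene, with sgRosa26 (A to D) and sgCcnd1 (E to I) side by side and the group mean and SD as bars. The groups overlap in every panel, and E and F are the 2 highest libraries in 7 of the 10.

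The spread among livers of a group was larger for these genes than for most. The SD within groups, on the log2 scale, had a median of 0.39 over the 10 genes and 0.20 over all genes tested. Pnpla3 had an SD of 0.94, above 99.2% of the genes tested. Fasn and Thrsp, with SDs of 0.52 and 0.51, were above 94.0% and 93.3% of them, and Mlxipl, with 0.12, was above 16.3%. From the lowest to the highest library, levels differed 4.83 times for Pnpla3, 3.14 times for Thrsp, 2.74 times for Acly, 2.50 times for Scd1 and 2.45 times for Fasn.

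Part of this spread ran together across genes. When each gene's log2 values were centred on their mean over the 9 libraries, the mean over the 10 genes was 0.48 in E and 0.52 in F, and lay between -0.33 (H) and 0.05 (C) in the other 7 libraries. E and F were each above the median library for 9 of the 10 genes. The exceptions were Mlxipl in F, which was below its median, and Mlxipl in E, which was its median library. E and F also had the most reads, 20.2 and 18.1 M, and the next library, G, had 16.7 M. H, with the lowest mean over the genes, had 15.5 M. I, with the fewest reads, had 10.8 M and a mean of -0.19. The part of depth in this pattern was not tested.

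**Figure D3:**
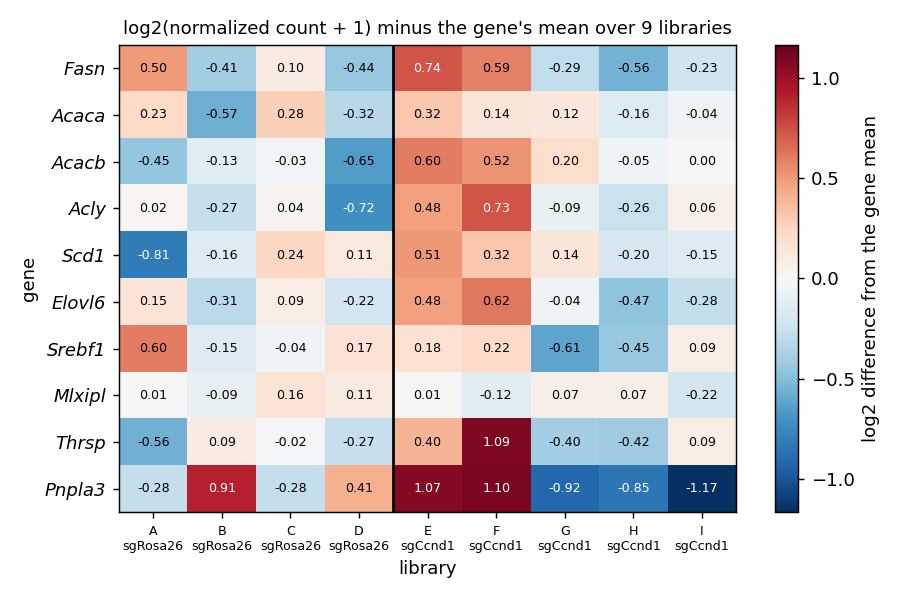
Log2 level of each of the 10 lipogenic genes (rows) in each library (columns), centred on the gene's mean over the 9 libraries, with the value printed in each cell. Cells of E and F are positive for every enzyme and for Thrsp and Pnpla3, and the row of Mlxipl stays close to 0.

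Pairs of the 10 genes were compared over the 9 libraries, 45 pairs in all. Pearson's r was above 0 for 35 pairs and had a median of 0.42, or 0.52 after centring each gene within its group. For each pair, r was also taken without the 2 libraries farthest from the median of 1 gene of the pair, and its median was then 0.33. Of the 35 pairs above 0, 8 fell below 0 in this way, 6 of them without E and F; Elovl6 and Thrsp went from r = 0.66 (exact permutation p = 0.0478, adjusted 0.201; rho = 0.37, exact permutation p = 0.336, adjusted 0.488) to -0.27 without these. The r of these 6 pairs rests on E and F. Both E and F were left out for 13 of the 45 pairs. The other pairs lost other libraries, so how far they rest on E and F was not examined. The closest pair was Fasn and Elovl6, with r = 0.94 (exact permutation p = 0.00016, adjusted over 45 pairs 0.00719) and Spearman's rho = 0.90 (exact permutation p = 0.00203, adjusted 0.0911). Without E and F, the 2 libraries farthest from the median of Fasn, r was 0.88. It was the 1 pair that passed the adjustment with r, and 0 pairs passed with rho. Fasn and Acly had r = 0.82 (exact permutation p = 0.00265, adjusted 0.0596; rho = 0.87, exact permutation p = 0.00451, adjusted 0.0911), and r was 0.60 without E and F. Acacb and Acly had r = 0.84 (exact permutation p = 0.00648, adjusted 0.0729; rho = 0.80, exact permutation p = 0.0138, adjusted 0.124), and r was 0.66 without D and E.

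Srebf1 had its highest r with Fasn, 0.65 (exact permutation p = 0.0573, adjusted 0.202; rho = 0.68, exact permutation p = 0.0503, adjusted 0.206), and r was 0.68 without E and F. Mlxipl followed no other gene of the set closely: its highest r was 0.18, with Acaca (exact permutation p = 0.645, adjusted 0.744; rho = 0.10, exact permutation p = 0.810, adjusted 0.828), and 0.30 without B and D. Pnpla3 was nearest to Thrsp, with r = 0.65 (exact permutation p = 0.0484, adjusted 0.201; rho = 0.60, exact permutation p = 0.0968, adjusted 0.285), and 0.58 without A and F. E and F were the highest libraries of both genes, and E was kept here, so this value does not show the pair without both.

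Outside the set, genes whose mean reached 100 normalized counts were ranked by r with the mean centred level of the 10 genes. There were 8933 candidates. The ranking is a description over 9 libraries, and the depth and scaling of a library are common to all its genes. Among the 10 highest were Tmie (0.92), Med19 (0.92), Rpia (0.91), Prkaca (0.88), G6pdx (0.86), Acpp (0.86), Srd5a3 (0.85), Pold2 (0.84) and Mfsd13a (0.83). Rpia and G6pdx are enzymes of the pentose phosphate pathway, G6pdx at the step that makes NADPH. G6pdx had 160 to 276 normalized counts in the controls, 431 and 363 in E and F, and 187 to 253 in G, H and I. Prkaca encodes a catalytic subunit of protein kinase A. The 5 lowest were Zcchc2 (-0.93), Gm15638 (-0.90), Cox7b (-0.89), Hsd17b6 (-0.86) and Cibar1 (-0.86).

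Levels of different genes were compared only per kilobase of exon, with lengths from GENCODE M21, which may not be the annotation the reads were counted on. Scd1 had 71529 normalized counts per kilobase over the 9 libraries, 20.1 times the next gene, Thrsp, with 3551. Mlxipl (2887), Acly (2887) and Fasn (2826) followed, and in this group neighbours changed places between libraries: Thrsp exceeded Mlxipl in 5 of 9 libraries, Mlxipl exceeded Acly in 6 and Acly exceeded Fasn in 5. Srebf1, with 1453 per kilobase, was below Fasn in 9 of 9 libraries and above Pnpla3 in 9 of 9. Pnpla3 (656) and Elovl6 (649) could not be ranked, since Pnpla3 was the higher in 4 of 9 libraries. Acacb (420) was below Elovl6 in 9 of 9 libraries and above Acaca (266) in 8 of 9.

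Genes that surround the pathway were read from the same fit, by lists of function. Of the 12 genes that supply substrate and NADPH, 0 passed in either direction, 3 had an unadjusted limma p under 0.05, all with higher means in sgCcnd1 (5.22% of all genes tested did so, and 5.74% were lower at that p), and the median log2 fold change was 0.19, against 0.014 over all genes tested. Me1, cytosolic malic enzyme, which makes NADPH, had 2009, 4923, 5059 and 4517 normalized counts in A to D, and 7915, 7797, 5851, 5611 and 5473 in E to I. All 5 sgCcnd1 libraries of Me1 were above all controls, and control A was far below the rest. Its log2 fold change was 0.73 (limma adjusted p = 0.334). For Pklr, the liver pyruvate kinase and a ChREBP target, it was 0.46 (limma adjusted p = 0.338), for Tkt 0.21 (0.452) and for G6pdx 0.45 (0.516).

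Among the other elongases and desaturases, 0 of 11 tested passed in either direction, with a median log2 fold change of 0.09 and 0 at an unadjusted limma p under 0.05. Of 12 triglyceride synthesis genes, 0 passed and the median was 0.15. At an unadjusted limma p under 0.05, 2 of the 12 were higher (5.22% of all genes tested) and 1 lower (5.74%): Gpat4 at a log2 fold change of 0.32 (adjusted p = 0.325), Lpin2 at 0.51 (0.337) and Agpat1 at -0.31 (0.418). Lipid droplet proteins and lipases gave 0 of 17 in either direction, with a median of 0.11. Among these Cideb, which helps to load lipid onto VLDL, had 0.23 (limma adjusted p = 0.372).

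On the side of control, 0 of 6 SREBP processing genes, 0 of 12 transcription factors and partners, 0 of 8 other LXR targets and 0 of 7 AMPK subunits tested passed in either direction. Their median log2 fold changes were -0.0048, 0.026, 0.069 and -0.013. At an unadjusted limma p under 0.05 there were 0 SREBP processing genes, 3 higher of the factors, 1 higher of the LXR targets, and 1 higher and 1 lower of the AMPK subunits, where 5.22% of all genes tested were higher and 5.74% lower. The 3 factors were Rxra, Pparg and Onecut1, of which Onecut1 had 632 normalized counts in H against 46.0 to 192 in the other sgCcnd1 libraries. At the same unadjusted p, edgeR gave 1 of the 12 factors, DESeq2 with all 9 libraries 3, and DESeq2 without H 0. Pparg, which drives lipogenic genes in fatty liver, was at 0.44 on the log2 scale (limma adjusted p = 0.449). Lpcat3, an LXR target that remodels phospholipids, had 0.22 (limma adjusted p = 0.380) with all sgCcnd1 libraries above all controls. Prkab1, a regulatory subunit of AMPK, had -0.26 (limma adjusted p = 0.363) with all sgCcnd1 libraries below all controls, of which A stood above the others. The 18 cholesterol synthesis genes, which SREBP-2 controls, had a median of -0.034, and 0 passed in either direction (1 lower at an unadjusted limma p under 0.05). With edgeR and with DESeq2 on all 9 libraries, 0 genes passed in any of the lists of lipid genes and their control.

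**Figure D4:**
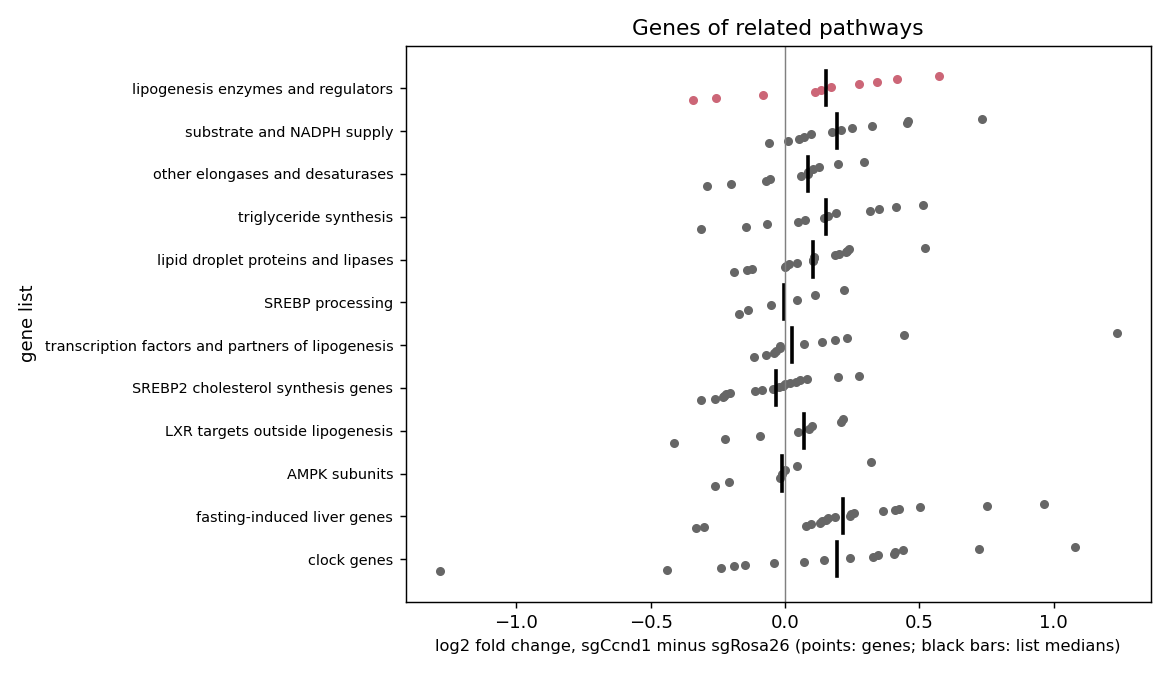
Log2 fold changes, sgCcnd1 minus sgRosa26, of the tested genes in each list of function, as points, with the median of each list as a black bar (red points are the 10 lipogenic genes). The medians of the lipogenic genes (0.15), substrate and NADPH supply (0.19) and triglyceride synthesis (0.15) are set beside 0.014 for all genes tested; the first is 0.035 without library B. By limma, 0 of the genes shown passed the adjusted threshold.

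Lists for feeding state, time of day and other cells were read from the same fit. Of 18 fasting-induced genes, 0 passed in either direction, 3 were higher at an unadjusted limma p under 0.05 (5.22% of all genes tested were), and the median log2 fold change was 0.21. The 3 were Angptl4, Ehhadh and Txnip, of which Txnip is also a target of ChREBP that responds to glucose. The sum of the 18 was 72282 to 91406 normalized counts in sgRosa26 and 71327 to 125298 in sgCcnd1. Of 16 clock genes, which also set the daily rhythm of lipogenic genes, 0 passed, 4 were higher and 2 lower at an unadjusted limma p under 0.05, against 5.22% and 5.74% of all genes tested, and the median was 0.19. Dbp, an output gene of the clock, had 99.0 to 348 normalized counts in the controls and 179 to 541 in sgCcnd1. Npas2, which peaks at the opposite phase, had 83.6 to 178 in the controls and 28.4 to 72.4 in sgCcnd1, a difference of -1.29 on the log2 scale (limma adjusted p = 0.225; DESeq2 adjusted p = 0.00340). Times of feeding and harvest are not given in the labels, and their part in the values of the lipogenic genes was not tested.

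Fat cells express most of the same enzymes. Of 8 adipocyte markers, the defining genes Adipoq, Plin1 and Lep had at most 1 read in any library and Retn at most 2, and the sum of the 8 was 1137 to 1728 normalized counts in sgRosa26 and 1297 to 1781 in sgCcnd1. The 9 Kupffer and myeloid markers summed to 3615 to 4297 in sgRosa26 and 3006 to 3857 in sgCcnd1. At an unadjusted limma p under 0.05, 3 of 9 were lower (Lyz2, Cd68 and Ptprc) and 0 higher. The others, Clec4f, Cd5l, Timd4, Adgre1, Vsig4 and Csf1r, had log2 fold changes of -0.056, -0.061, 0.10, 0.0046, -0.25 and -0.17. Of the 9, DESeq2 called Lyz2 (log2 fold change -0.44, adjusted p = 0.00203) and Cd68 (-0.71, adjusted p = 0.0265) lower, and without library H only Lyz2 (Cd68 adjusted p = 0.132). The 7 stellate cell markers summed to 3647 to 5988 and 3271 to 4928, with 3 of 7 lower and 0 higher. Endothelial markers (7) summed to 2073 to 3232 and 2357 to 3385, with 0 at that p, and cholangiocyte markers (6) to 931 to 1908 and 753 to 1169, with 1 of the 5 tested lower. Of zonal hepatocyte markers, 1 of 7 pericentral genes was lower and 2 of 7 periportal genes were higher at that p, of which DESeq2 called Sds with all libraries (log2 fold change 0.52, adjusted p = 0.0394) and not without H (adjusted p = 0.171). At an unadjusted limma p these shares are to be read against the 5.22% higher and 5.74% lower of all genes tested. The part of these cells in the values of the lipogenic genes was not tested.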

How the data were processed

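PolyA RNA of 9 liver pieces was sequenced, 10.8 to 20.2 M reads per library, which are not identified by molecule. The submitters' processing notes list Trim Galore 0.6.7, HISAT2 2.2.1, featureCounts 2.0.3, FastQC 0.74, MultiQC and DESeq2 2.11.40.8, and the builds mm10 and GRCm38. The use of strand is not given in the sources used here, so reads of overlapping genes, such as Elovl6 and Gm35986, may not be told apart. The values deposited by the authors are a signal, counts divided by 1 size factor per library. In each column 100% of the values came out as whole reads within 0.01 read, but for library H that value is so near 1 that the steps cannot be told from rounding.

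The test was limma 3.58.1 in R 4.3.3 (lmFit, eBayes with trend, two-sided) on log2(normalized count + 1) for 12993 genes with a mean of at least 10, adjusted by Benjamini-Hochberg over all of them, threshold 0.05. A pseudocount of 1 understates changes of low genes. Exact permutation tests were two-sided. Named were all 10 genes, Ccnd1, up to 4 genes per list with the smallest p, and the genes most and least like the 10, of which the text gives a part. A gene that this rule picked is not reported here. The members and lists were chosen with earlier results of these data known. Separate mice are shown only by animal numbers, so p-values measure the spread between these samples. Alternatives were pseudocounts of 0.1 and 10, no minimum or 100, quantile and 75th percentile scaling, edgeR 4.0.16 and DESeq2 1.42.0 on recovered reads, and leaving out each library. The fits were tested on simulated data. DESeq2 left 1010 adjusted p-values undefined.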

Additional observations from a re-analysis of the deposited data

Results flagged for a closer look

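Dixon's test on each group of libraries, for the 10 lipogenic genes and their summed share of reads, Ccnd1, Mid1ip1 and up to 4 genes of each list (those with the smallest p), set 1 library apart from the rest of its group in 13 of 178 groups examined, where chance alone gives about 1 in 20, or 8.9. In 0 of the 13 was the gene one of the 10. Among lipid genes, Plin3, a lipid droplet coat protein, had 1259 normalized counts in F against 982 to 1042 in the other sgCcnd1 libraries. Prkab1, the AMPK subunit, had 617 in control A against 478 to 501 in the other controls. Onecut1, a liver transcription factor, had 632 in H against 46.0 to 192. Txnip, a glucose-responsive ChREBP target, had 599 in control D against 916 to 953. Fabp4, which adipocytes and other cells express, had 133 in control B against 59.0 to 71.3.

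Of the markers of other cells, 4 stood high in library E. Vsig4 of Kupffer cells had 334 normalized counts there against 211 to 237 in the other sgCcnd1 libraries, Pecam1 of endothelium had 313 against 193 to 227, Col1a1 had 242 against 99.9 to 138 and Col3a1 had 515 against 273 to 341. In control D, Ptprc of leukocytes was low, with 175 against 212 to 218, and so was Pecam1, with 183 against 253 to 266. Of zonal hepatocyte markers, the pericentral Lgr5 had 139 in G against 63.0 to 78.1, and the periportal Sds had 2245 in E against 3166 to 3483. E is also 1 of the 2 libraries with the highest levels of most lipogenic genes, and the part of its cell makeup in those levels was not tested.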

How the results depend on the processing

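Over 18 other settings, 7 of the 10 genes kept the sign of their log2 fold change in every one, Acacb between 0.46 and 0.67. The exceptions were Fasn (-0.0039 without B, -0.014 without D, -0.060 without E and -0.022 without F, leave-one-out range -0.060 to 0.30), Elovl6 (-0.0038 without F, range to 0.27) and Pnpla3 (0.098 in DESeq2 without library H, chosen after seeing the data). Over the 10 genes, 0 were called, except 1 (Acacb) in DESeq2 without H. Over all genes, limma called 0 higher and 1 lower, DESeq2 41 and 76, DESeq2 without H 16 and 25, and quantile scaling 2 lower; leaving out 1 library gave 0 to 2 lower (0 without B, D, F, H or I, where the call lost is Ccnd1, and 2 without E or G). At an unadjusted p under 0.05, limma gave 678 higher and 746 lower, 75th percentile scaling 464 and 953, and a minimum mean of 100 gave 586 and 351; Acacb was on the higher side in each. The cause was not tested. No paired analysis was possible because the table's columns carry no replicate number. How small a difference this depth can show was not tested.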
